A study of Homo sapiens with 12 samples.

Results

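Genes used as readouts of cellular senescence at the nuclear envelope, in chromatin and in the lysosome, 10 in all, were examined in cholangiocarcinoma (CCA) cells. They were the lamins LMNB1, LMNB2 and LMNA, the inner nuclear membrane genes LBR and TMPO, the high mobility group genes HMGB1, HMGB2, HMGA1 and HMGA2, and GLB1, the lysosomal beta-galactosidase. The genes were chosen by name, with earlier results of these data known, and all 10 were found among the 60651 genes of the count table. The study asked how decitabine, an inhibitor of DNA methyltransferases, acts with talazoparib, an inhibitor of PARP enzymes. EGI-1 and HUCCT1 are established human CCA cell lines, labelled as wild type. EGI-1 cells received vehicle (DMSO), 500 nM decitabine, 200 nM talazoparib or both, and HUCCT1 cells received vehicle (DMSO) or 1000 nM decitabine, each for 72 h with 2 libraries per condition. Nothing in the labels says that the 2 libraries of a condition came from separate cultures, so the p-values measure the spread between these libraries, which may be technical.

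The nuclear lamina is a protein mesh under the inner nuclear membrane. B-type lamins stay attached to the membrane and anchor heterochromatin there, whereas A-type lamins also occur in the nuclear interior. Loss of lamin B1 is widely used as a marker of senescent cells, as are a fall in HMGB2, the release of HMGB1 from the nucleus, a gain of HMGA proteins in senescence-associated heterochromatin foci, and beta-galactosidase activity encoded by GLB1. In dividing cells, several of these genes, among them LMNB1, TMPO and HMGB2, are also transcribed most in the later cell cycle.

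Total counts lay between 23139065 and 33181930 in the 8 EGI-1 libraries and between 32519985 and 34965627 in the 4 HUCCT1 libraries. Epithelial keratins were expressed in both lines, with KRT19 at 1461 to 1661 CPM (counts scaled to library size) in EGI-1 and 1576 to 3070 CPM in HUCCT1, whereas KRT7 lay at only 39.1 to 69.6 CPM in EGI-1. The hepatocyte gene TTR had no count in any library. EGI-1 combination replicate 2 stood apart in leukocyte transcripts: PTPRC, the pan-leukocyte phosphatase, had 381 counts there against 1 to 7 in the other 7 EGI-1 libraries, and the T cell gene CD3E had 148 against 0 to 4. The monocyte gene CD14 did not stand apart, with 71 counts there and 42 to 96 in the other 7. The 3 leukocyte markers summed to 1.96 CPM in one combination library and 19.8 CPM in the other. Their part in the results was not tested, and several results with the combination are given below also without that library.

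The upstream windows of 5 of the genes are shown because the genes differ in response while their windows share a short motif. Capitals mark matches to CCAAT, to the cell cycle homology region (CHR, searched as TTTGAA or TTTAAA, the latter identical on both strands), a motif of late cell cycle promoters, and to an E2F core (TTGGCGC, searched also as TTCGCGC, in a further form as TTCCCGC and in the last form as TTGCCGC), all on both strands. Each window is the 250 bases before a RefSeq start on GRCh38.p14, 5′ to 3′ on the strand of the gene, and each lies outside its GENCODE 44 gene.
LMNB1, chr5:126776373-126776622, plus strand: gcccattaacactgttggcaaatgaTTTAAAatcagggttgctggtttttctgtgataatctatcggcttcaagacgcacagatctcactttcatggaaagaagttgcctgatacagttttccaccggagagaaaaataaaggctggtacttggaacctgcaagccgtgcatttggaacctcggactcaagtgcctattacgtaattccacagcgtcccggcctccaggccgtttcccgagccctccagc
LMNA, chr1:156082323-156082572, plus strand: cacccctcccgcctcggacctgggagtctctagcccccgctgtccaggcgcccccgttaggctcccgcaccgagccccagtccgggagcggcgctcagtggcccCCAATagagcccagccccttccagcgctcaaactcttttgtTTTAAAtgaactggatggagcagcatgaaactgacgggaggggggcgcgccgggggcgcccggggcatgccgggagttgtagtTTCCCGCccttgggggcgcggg
TMPO, chr12:98515323-98515572, plus strand: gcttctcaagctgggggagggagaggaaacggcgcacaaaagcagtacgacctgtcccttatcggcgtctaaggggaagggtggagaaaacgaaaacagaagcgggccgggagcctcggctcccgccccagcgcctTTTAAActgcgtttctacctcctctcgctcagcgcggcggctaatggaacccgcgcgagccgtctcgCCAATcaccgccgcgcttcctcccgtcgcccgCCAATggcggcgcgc
LMNB2, chr19:2456960-2457209, minus strand: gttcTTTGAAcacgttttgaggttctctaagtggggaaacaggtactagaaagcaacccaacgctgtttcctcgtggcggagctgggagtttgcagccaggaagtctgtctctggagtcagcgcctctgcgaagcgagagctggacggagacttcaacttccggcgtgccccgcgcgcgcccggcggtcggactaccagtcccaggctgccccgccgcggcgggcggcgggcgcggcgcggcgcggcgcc
HMGA1, chr6:34236623-34236872, plus strand: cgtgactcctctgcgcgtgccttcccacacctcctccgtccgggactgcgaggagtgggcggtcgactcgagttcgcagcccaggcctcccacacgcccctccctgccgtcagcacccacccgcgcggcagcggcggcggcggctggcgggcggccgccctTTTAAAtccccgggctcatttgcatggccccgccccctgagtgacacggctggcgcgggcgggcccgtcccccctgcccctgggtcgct
A CHR match stood 220 to 225 bases before the LMNB1 start, 100 to 105 before LMNA, 109 to 114 before TMPO, 241 to 246 before LMNB2 and 84 to 89 before HMGA1. The only E2F core match was in LMNA, 16 to 22 bases before the start.

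RefSeq windows were given for 8 of the 10 genes, 15 windows in all, and none for HMGB2 and HMGA2. A CHR match was found in 9 windows of 7 genes, against 21.9% of the 35116 promoter windows in the table. Matches to CCAAT were found in 7 windows of 5 genes, against 32% of all windows, and an E2F core in 1 window, against 10.9%. The TMPO windows overlap (98515323 to 98515572 and 98515340 to 98515589) and hold the same CHR and CCAAT sites. The counts of windows with a match thus include these sites more than once. The GLB1 window held none of these motifs. The median number of CpG dinucleotides, the sites of DNA methyltransferases, was 26 per window in the 15 windows and 11 in all windows. LMNB1 stood at the low end among the 5 windows shown, with 10 CpG, against 21 in LMNA and 30 each in TMPO, LMNB2 and HMGA1. That order depends on the window chosen. The other windows of these genes held 29 CpG in LMNB1, 23 and 18 in LMNA, 32 in TMPO and 5 in HMGA1. Of the 15 windows, 9 overlap their own GENCODE gene and so hold some transcribed sequence.

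In vehicle-treated cells, levels were compared between genes as CPM per kb of merged exon length. HMGA1, which encodes an AT-hook DNA-binding protein and is abundant in many carcinomas, was far above the rest, at 2347 CPM per kb in EGI-1 and 1326 CPM per kb in HUCCT1. The lamins followed in EGI-1, with LMNB2 at 95.1, LMNA at 90.4 and LMNB1 at 71.5 CPM per kb. In HUCCT1 LMNA led them with 117 CPM per kb, ahead of LMNB2 with 75.4 and LMNB1 with 69.3. LBR, HMGB2, HMGA2, HMGB1, TMPO and GLB1 lay between 11.9 and 32.4 CPM per kb in EGI-1 and between 14.2 and 29.2 CPM per kb in HUCCT1. The scale understates genes with long, seldom used exons, such as HMGA2 with 15070 and HMGB1 with 7696 merged bases. Counts are per gene, so the transcripts of lamin A and lamin C, both from LMNA, or the forms of TMPO (lamina-associated polypeptide 2) cannot be told apart.

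**Figure D1:**
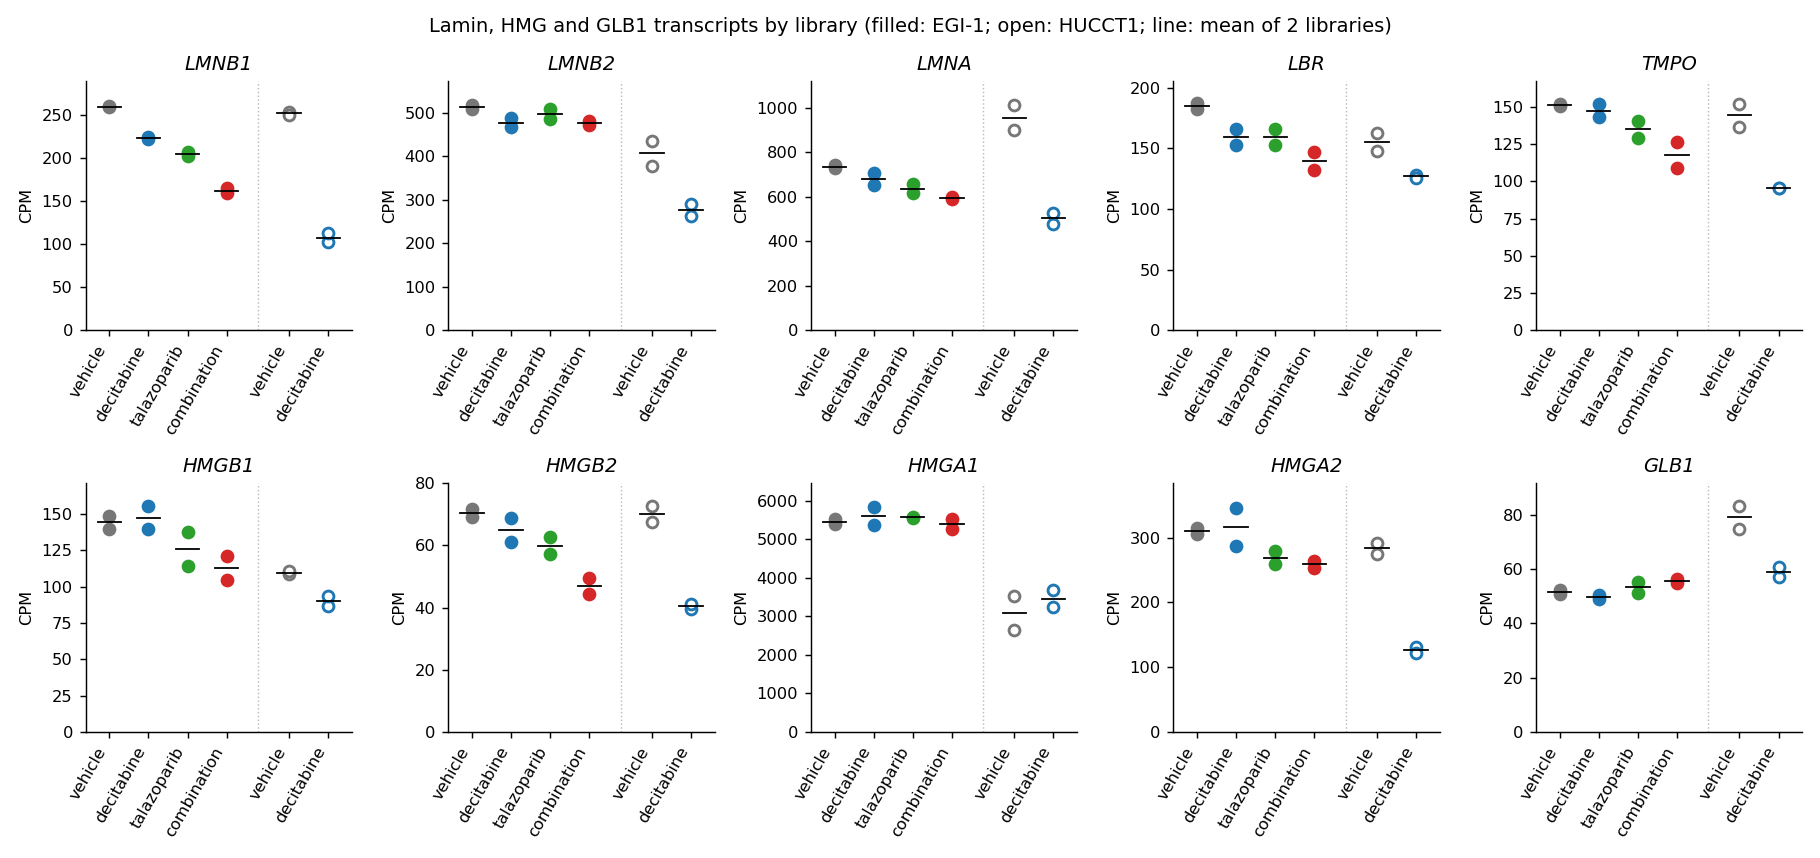
CPM (y axis, each panel from 0) of the 10 genes in each library, by condition; filled points are EGI-1, open points HUCCT1, and the line is the mean of 2 libraries. LMNB1 fell from 259 and 260 CPM in EGI-1 vehicle to 159 and 165 CPM with the combination, and from 250 and 253 CPM to 102 and 113 CPM in HUCCT1 with decitabine.

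LMNB1 fell in EGI-1 with talazoparib and fell further with the combination. Vehicle libraries held 259 and 260 CPM, decitabine libraries 222 and 224 CPM, talazoparib libraries 202 and 207 CPM, and combination libraries 159 and 165 CPM. The 4 conditions did not overlap. LMNB1 fell by 37.9% with the combination (log2 fold change -0.69, SE 0.06, adjusted p = 1.37e-07), and it fell by 21.3% with talazoparib (log2 fold change -0.34, SE 0.06, adjusted p = 0.000992). With decitabine the log2 fold change was -0.21 (95% interval -0.33 to -0.10, adjusted p = 0.107), which did not pass the test over all genes. The combination lay below each agent alone, by -0.47 log2 against decitabine (adjusted p = 2.91e-05) and by -0.34 log2 against talazoparib (adjusted p = 0.00245). Without combination replicate 2 the combination effect on LMNB1 was -0.71 (adjusted p = 7.47e-06).

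Of the other lamins, LMNA was called lower with talazoparib and with the combination, as LMNB1 was, and LMNB2 with neither. Differences between the lamins were not tested. LMNA, the A-type lamin gene, was at 727 and 745 CPM with vehicle, 616 and 656 CPM with talazoparib and 589 and 597 CPM with the combination. It fell with talazoparib (log2 fold change -0.21, SE 0.05, adjusted p = 0.038) and with the combination (log2 fold change -0.32, SE 0.05, adjusted p = 0.000484), and neither set of libraries overlapped with vehicle. The talazoparib call was lost in 6 of the 8 fits that left out 1 library (each library but those of decitabine), with adjusted p from 0.0584 to 0.389 there. LMNB2, which encodes the other B-type lamin, held 508 and 518 CPM with vehicle and 472 and 481 CPM with the combination. Its log2 fold change of -0.12 (95% interval -0.23 to -0.01, adjusted p = 0.143) did not pass the test, although the libraries did not overlap.

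Ratios taken within each library do not depend on scaling between libraries. The log2 ratio of LMNB1 to LMNA was -1.49 and -1.52 with vehicle, -1.56 and -1.65 with decitabine, -1.67 and -1.61 with talazoparib and -1.91 and -1.83 with the combination. All treated libraries thus lay below both vehicle libraries, and the mean with the combination was 0.37 lower (-0.37, pooled SD 0.04). LMNB2 moved the other way relative to LMNA, by 0.20 (pooled SD 0.03) with the combination. The smallest p that an exact permutation test (two-sided) allows for 2 libraries in each condition is 0.333, so these ratios are given without a test.

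Of the membrane proteins of the lamina, LBR (lamin B receptor, which tethers heterochromatin and also acts in sterol synthesis) was at 183 and 187 CPM with vehicle and 132 and 147 CPM with the combination. TMPO, whose products bind lamins and chromatin, was at 150.9 and 152 CPM and at 109 and 127 CPM. Neither overlapped with vehicle: with the combination LBR fell by 25% (log2 fold change -0.41, SE 0.07, adjusted p = 0.000362) and TMPO fell by 22.7% (log2 fold change -0.37, SE 0.07, adjusted p = 0.00148). Against decitabine alone, TMPO fell (-0.34, adjusted p = 0.00684) and LBR had -0.21 (adjusted p = 0.0797). With a single agent neither passed the test, with values of -0.21 for LBR with each agent, and -0.03 with decitabine and -0.16 with talazoparib for TMPO. The antisense gene TMPO-AS1 shares 646 exonic bases with TMPO but had only 121 to 513 counts per library against 2661 to 4904 for TMPO.

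With the combination in EGI-1, HMGB2, a DNA-bending protein of dividing cells, was the member with the next largest decrease after LMNB1. Its libraries held 69.1 and 71.7 CPM with vehicle, 61 and 68.7 CPM with decitabine, 57.1 and 62.6 CPM with talazoparib and 44.2 and 49.7 CPM with the combination. The combination libraries lay below all other EGI-1 libraries. HMGB2 fell by 33.8% against vehicle (log2 fold change -0.59, SE 0.08, adjusted p = 5.51e-05), by -0.48 log2 against decitabine (adjusted p = 0.00106) and by -0.36 log2 against talazoparib (adjusted p = 0.0272). The last call was lost without combination replicate 2 (log2 fold change -0.28, adjusted p = 0.336) and without either talazoparib library or either vehicle library.

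HMGB1, its more widely expressed relative, held 140 and 148 CPM with vehicle, 139 and 155 CPM with decitabine, 115 and 138 CPM with talazoparib and 105 and 121 CPM with the combination. Decitabine and vehicle overlapped, and talazoparib and combination libraries overlapped with each other. HMGB1 fell with the combination against vehicle (log2 fold change -0.36, SE 0.09, adjusted p = 0.0119) and against decitabine (log2 fold change -0.40, SE 0.09, adjusted p = 0.0137). The call against vehicle was lost when combination replicate 1 or either vehicle library was left out, with adjusted p from 0.0511 to 0.115. HMGB1 has 48 annotated processed copies with its name, whose counts summed to 16.9% of those of HMGB1, so its value depends in part on how reads with several matches were assigned. With their counts added, the decrease against vehicle was -0.38 (adjusted p = 0.00617).

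The AT-hook genes parted. HMGA1 lay at 5389 and 5534 CPM with vehicle and 5274 and 5535 CPM with the combination, which overlapped, and its log2 fold change of -0.02 had a 95% interval of -0.13 to 0.08. HMGA2, an oncofetal gene held low in most adult tissues, was at 306 and 314 CPM with vehicle, 260 and 279 CPM with talazoparib and 254 and 264 CPM with the combination. HMGA2 fell with the combination (log2 fold change -0.27, SE 0.07, adjusted p = 0.0159), without overlap with vehicle. Leaving out combination replicate 2 or either vehicle library ended that call, with adjusted p from 0.0833 to 0.137. The lncRNA HMGA2-AS1, which shares 384 exonic bases with HMGA2 on the opposite strand, had a log2 fold change of -0.36 in the same comparison (adjusted p = 0.0307). The library kit marked strand, but whether the counting used it is not stated in the sources used here, so the reads of HMGA2 and of HMGA2-AS1 cannot be told apart where they overlap.

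GLB1 held 50.9 and 52.3 CPM with vehicle, 49.1 and 50.5 CPM with decitabine, 51.3 and 55.2 CPM with talazoparib and 54.9 and 56.5 CPM with the combination. The combination libraries lay above those of vehicle and decitabine and overlapped with those of talazoparib. The log2 fold change against vehicle was 0.10 (95% interval -0.04 to 0.25, adjusted p = 0.352), which did not pass the test. GLB1 shares 253 exonic bases with TMPPE on the same strand, and TMPPE had 492 to 727 counts per library against 1343 to 2519 for GLB1.

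**Figure D2:**
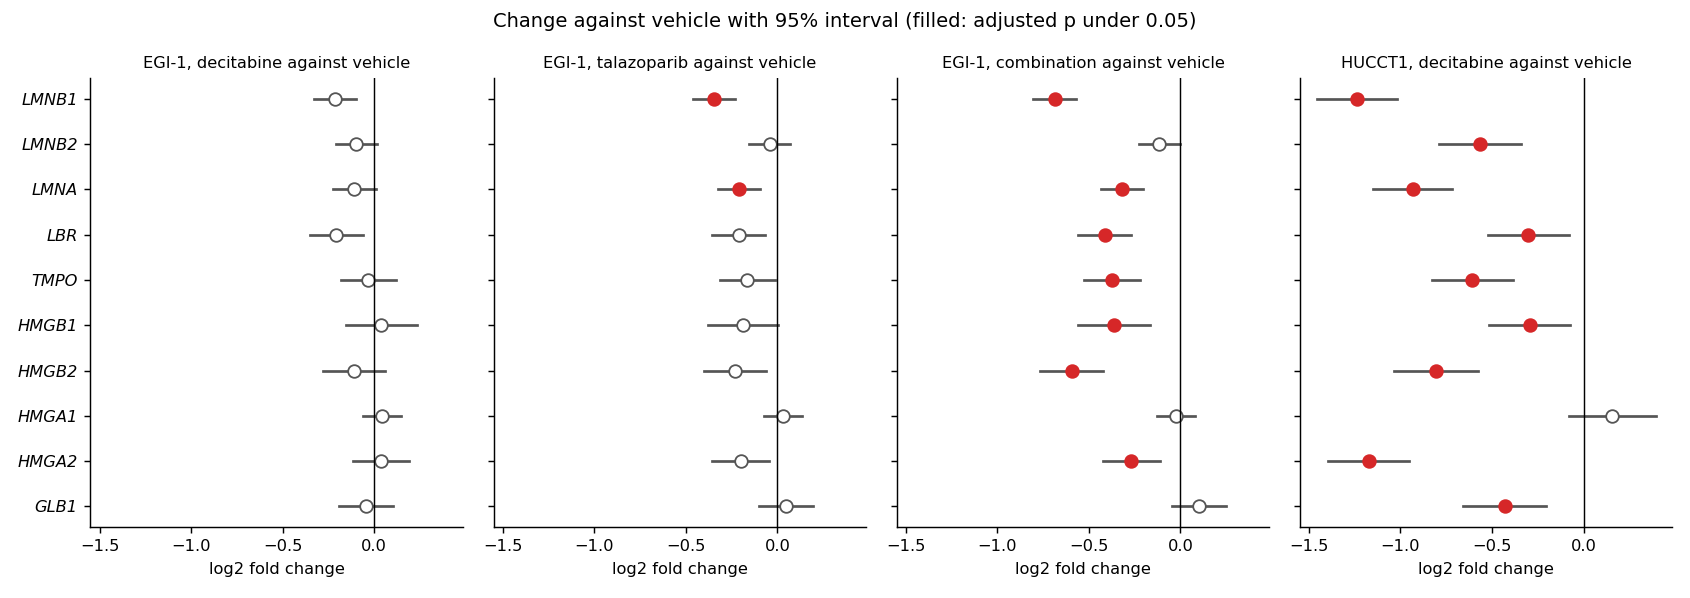
Log2 fold change against vehicle (x axis) with its 95% interval for each of the 10 genes in 4 comparisons; filled points passed the test at an adjusted p under 0.05. No gene passed with decitabine in EGI-1, 2 passed with talazoparib, 7 with the combination and 9 with decitabine in HUCCT1, all lower than vehicle. Of all genes tested, 0.0268%, 1.29%, 7.61% and 13.9% were called lower in these comparisons, in the same order.

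Counted over the 10 genes, the combination in EGI-1 lowered 7 against vehicle and raised none, where 7.61% of the 22406 genes tested were called lower. The median log2 fold change of the 10 was -0.34, and that of all genes was -0.03. Over all genes 59.3% of the calls were higher, a share that was 49.2% with upper-quartile scaling, and the count of 7 was the same under both. Talazoparib lowered 2 of the 10, LMNB1 and LMNA, where 1.29% of all genes were called lower. The other 8 lay between -0.23 for HMGB2 (adjusted p = 0.136) and 0.05 for GLB1 with talazoparib, with HMGA2 at -0.20, HMGB1 at -0.19, LMNB2 at -0.04 and HMGA1 at 0.03. Decitabine lowered none of the 10 in EGI-1 by edgeR or by DESeq2, where 0.0268% of all genes were called lower; 2 of the 10, LMNB1 and LBR, had an unadjusted p under 0.05, as had 9.14% of all genes. The others lay between -0.11 for HMGB2 and 0.04 for HMGA1 with decitabine, among them LMNA (-0.11), LMNB2 (-0.10), GLB1 (-0.04), TMPO, HMGB1 and HMGA2. These comparisons share the vehicle libraries. Both decitabine libraries of EGI-1 lay below both vehicle libraries for 6 of the 10 genes, although none was called. Lack of overlap between 2 and 2 libraries thus does not by itself show a change. The share of all genes without overlap is not given here.

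Against decitabine alone the combination lowered 6 of the 10 (LMNB1, HMGB2, HMGB1, TMPO, HMGA2 and LMNA), where 3.26% of all genes were called lower. HMGA2 was lower by -0.31 log2 (adjusted p = 0.0152) and LMNA by -0.21 log2 (adjusted p = 0.0238) there, while LMNB2 (-0.02), HMGA1 (-0.07) and GLB1 (0.15) passed no test. Against talazoparib alone it lowered 2, LMNB1 and HMGB2, where 0.567% were called lower, and the other 8 lay between -0.21 for TMPO and 0.06 for GLB1. Leaving out 1 library ended the call against decitabine for TMPO (without combination replicate 1), HMGB1 (without combination or decitabine replicate 1), HMGA2 (without either combination library or decitabine replicate 1) and LMNA (without either combination library, either vehicle library or decitabine replicate 2). Without combination replicate 2, which holds the leukocyte transcripts, 1 combination library is left. Fewer of the 10 genes were then called in each comparison with the combination, and fewer of all genes were called lower too. Against vehicle the log2 fold changes then lay between -0.71 for LMNB1 and 0.13 for GLB1. Fewer of all genes were called lower against vehicle also when either vehicle library was left out. An interaction term asked whether the combination departed from what both agents gave when their log2 effects were summed. No member departed by edgeR or DESeq2, where 0.152% of all genes were called lower. HMGB2 had the lowest unadjusted p, with a departure of -0.25 (SE 0.11, 95% interval -0.50 to -0.01, unadjusted p = 0.0406), and it alone was under 0.05, as were 3.38% of all genes. For LMNB1 the departure was -0.13 (95% interval -0.29 to 0.04), and the other 8 lay between -0.21 for HMGB1 and 0.10 for GLB1.

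Summed fibroblast, endothelial and biliary markers also differed between combination and vehicle in EGI-1, without overlap, whereas the leukocyte and hepatocyte sums overlapped. The 4 fibroblast markers summed to 28.7 and 30.4 CPM with vehicle and to 43 and 49.9 CPM with the combination, nearly all of it COL1A1. The 3 endothelial markers summed to 19.7 and 21.2 CPM and to 28.6 and 29.8 CPM, and the 8 biliary markers to 8325 and 8351 CPM and to 9183 and 9283 CPM. In the fibroblast, endothelial and biliary sums the libraries of the single agents lay between those of vehicle and of the combination. The part of these markers in the changes of the 10 genes was not tested.

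In HUCCT1, 9 of the 10 genes fell with decitabine and none was called higher, where 13.9% of the 22479 genes tested were called lower. The median log2 fold change was -0.59 over the 10 and 0.00 over all genes (0.002). LMNB1 was at 250 and 253 CPM with vehicle and at 102 and 113 CPM with decitabine, HMGA2 at 276 and 292 CPM and at 123 and 131 CPM, and LMNA at 898 and 1010 CPM and at 478 and 528 CPM. None of these overlapped. LMNB1 fell by 57.6% (log2 fold change -1.24, SE 0.11, adjusted p = 1.37e-09), HMGA2 fell by 55.7% (log2 fold change -1.17, SE 0.11, adjusted p = 3.44e-09) and LMNA fell by 47.7% (log2 fold change -0.93, SE 0.10, adjusted p = 1.29e-07).

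HMGB2 was at 67.6 and 72.6 CPM with vehicle and 39.7 and 41.2 CPM with decitabine, and TMPO at 136 and 152 CPM and at 95.3 and 95.5 CPM. LMNB2 was at 377 and 436 CPM with vehicle and at 263 and 291 CPM with decitabine. These 3 genes fell without overlap, HMGB2 by -0.80 (adjusted p = 3.04e-06), TMPO by -0.61 (adjusted p = 9.01e-05) and LMNB2 by -0.56 log2 (adjusted p = 0.000217). GLB1 fell as well, from 74.8 and 83.3 CPM to 57.3 and 60.8 CPM (log2 fold change -0.43, SE 0.11, adjusted p = 0.00347). LBR (-0.30, adjusted p = 0.0324) and HMGB1 (-0.29, adjusted p = 0.037) passed closer to the threshold. Leaving out 1 library ended the call of LBR in 3 of 4 cases (either decitabine library or vehicle replicate 1) and that of HMGB1 in each of the 4, with adjusted p from 0.0845 to 0.259 for HMGB1 and from 0.11 to 0.23 for LBR.

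HMGA1 did not pass the test in HUCCT1. Its vehicle libraries, at 2652 and 3518 CPM, enclosed one of the decitabine libraries at 3238 and 3679 CPM, and the log2 fold change was 0.16 (95% interval -0.08 to 0.39). With the replicate number as a block it was 0.17 and passed (adjusted p = 0.00792), although replicate numbers were not taken to pair the libraries. Without vehicle replicate 2 the value was 0.35 (adjusted p = 0.0371), and the lowest value with another library left out was -0.04. The log2 ratio of HMGA2 to HMGA1 went from -3.18 and -3.68 with vehicle to -4.63 and -4.91 with decitabine, a mean difference of -1.34 (pooled SD 0.28). The ratio of HMGB2 to HMGB1 differed by -0.51 (pooled SD 0.05) in HUCCT1 without overlap, whereas with the combination in EGI-1 that ratio overlapped with vehicle (-0.23, pooled SD 0.20). On the opposite strand of the HMGA2 locus, HMGA2-AS1 (log2 fold change -1.22, adjusted p = 1.14e-08) and the pseudogene RPSAP52 (log2 fold change -0.98, adjusted p = 4.15e-07), which shares no exonic base with it, fell too. These neighbours were picked because they overlap HMGA2.

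Cell type markers moved in the HUCCT1 libraries too. The 8 biliary markers summed to 14788 and 16594 CPM with vehicle and to 9387 and 10746 CPM with decitabine, and 5 of the 8 fell and 1 rose, where 13.9% of all genes were called lower and 19.6% higher. The 4 fibroblast markers summed to 27 and 30.4 CPM with vehicle and up to 194 CPM with decitabine, nearly all of it COL1A1, whereas COL3A1 had at most 2 counts in any library. The 3 endothelial markers summed to 4.1 and 5.47 CPM and to 24.9 and 26 CPM. The 3 leukocyte markers summed to at most 2.91 CPM with vehicle and 4.5 CPM with decitabine. Their part in the changes of the 10 genes was not tested.

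The HUCCT1 response to decitabine exceeded that of EGI-1 for most of the 10. In one fit of all 12 libraries, the decitabine effect was lower in HUCCT1 for 7 genes, where 7.20% of 25096 genes were called lower. The differences were -1.19 for HMGA2 (SE 0.12, adjusted p = 2.21e-07), -1.01 for LMNB1 (SE 0.10, adjusted p = 3.15e-07) and -0.81 for LMNA (SE 0.11, adjusted p = 1.27e-05). HMGB2, TMPO, LMNB2 and GLB1 differed by -0.68 to -0.37. The GLB1 call (adjusted p = 0.0332) was lost with upper-quartile scaling (adjusted p = 0.0525) and in 5 of the 12 fits that left out 1 library. For LBR the difference was -0.08 (95% interval -0.31 to 0.16), for HMGB1 -0.32 (95% interval -0.59 to -0.04, adjusted p = 0.116) and for HMGA1 0.13 (95% interval -0.17 to 0.42). The lines received different doses, and the library names carry codes, not explained, that differ between the lines. Line, dose and whatever these codes stand for cannot be told apart.

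Between the vehicle-treated lines, 2 of the 10 were higher and 4 lower in HUCCT1, where 28.5% of all genes were called higher and 27.3% lower. GLB1 (0.62, adjusted p = 1.4e-06) and LMNA (0.38, adjusted p = 0.000214) were higher. HMGA1 was lower by -0.82 (adjusted p = 1.33e-06), HMGB1 by -0.40, LMNB2 by -0.34 and LBR by -0.25 log2. LMNB1 (-0.05, 95% interval -0.19 to 0.10), HMGB2 (-0.01, 95% interval -0.19 to 0.18), TMPO (-0.07, 95% interval -0.24 to 0.10) and HMGA2 (-0.13, 95% interval -0.30 to 0.04) did not pass the test. The codes in the library names differ between the lines here too, so line cannot be told apart from what they stand for.

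**Figure D3:**
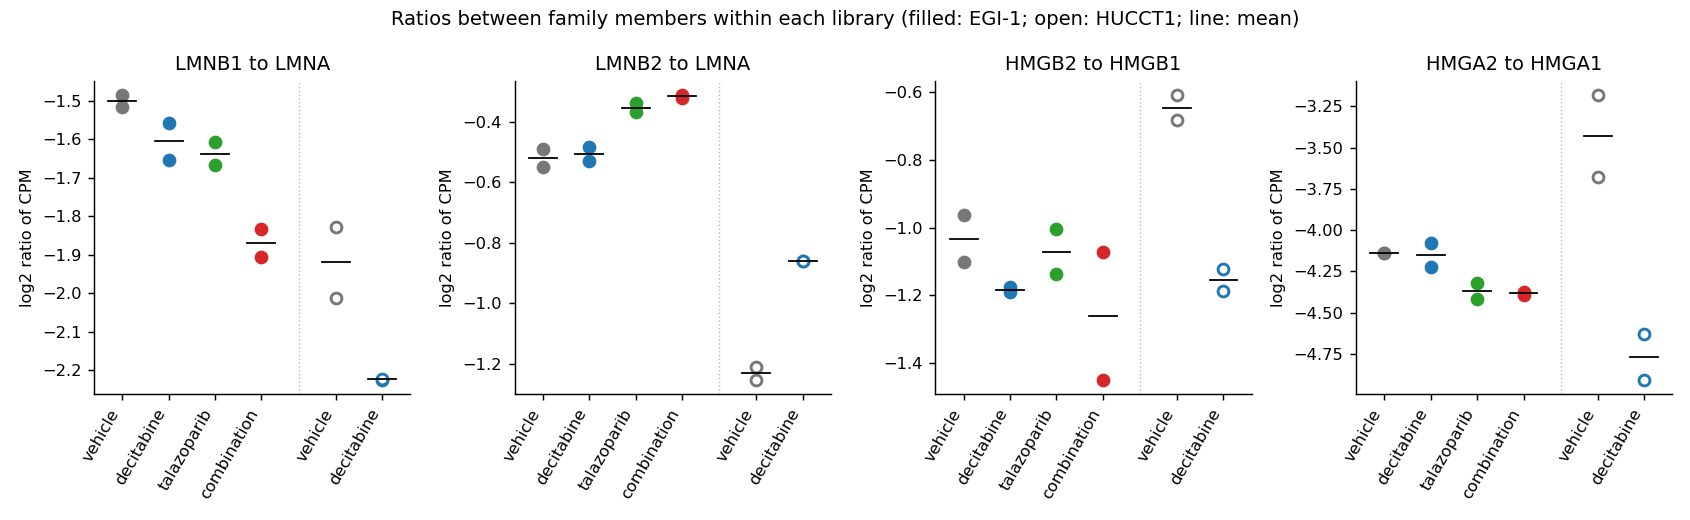
Log2 ratio of CPM between family members within each library (y axis), by condition; filled points are EGI-1, open points HUCCT1, and the line is the mean of 2 libraries. Within EGI-1, LMNB1 to LMNA was lowest with the combination (-1.91 and -1.83). It fell to -2.23 and -2.22 in HUCCT1 with decitabine, and HMGA2 to HMGA1 fell to -4.63 and -4.91 in HUCCT1 with decitabine.

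Over the 8 EGI-1 libraries, which span 4 conditions with 2 libraries each, so that r carries the differences between treatments, LMNB1 varied with LMNA (Pearson r of log2 CPM 0.95), HMGB2 (0.93) and LBR (0.91), and TMPO with HMGB1 (0.95). HMGA1 had r of 0.24 with LMNB1. GLB1 ran opposite, with r of -0.90 to HMGB1 and -0.70 to LMNB1. Among the 8542 genes whose mean log2 CPM reached 4, the 5 most like LMNB1 were UBQLN2 (r of 0.99), TUBGCP3 (0.99), ANKRD22 (0.99), BANF1 (0.99) and WWP2 (0.99). BANF1 encodes a DNA-binding protein of the lamina that was also on the list of lamina partners. In HUCCT1 the fold changes of these 5 with decitabine lay between -0.77 for TUBGCP3 (adjusted p = 8.21e-06) and -0.01 for BANF1 (adjusted p = 0.966).

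Other genes of the lamina were called in both directions in EGI-1. Of 22 tested partners of the lamina (inner membrane proteins, LINC complex, lamin-processing enzymes), the combination lowered 3 and raised 4, with a median log2 fold change of 0.02, where 7.61% of all genes were called lower and 11.1% higher. SYNE2, which links the nucleus to the cytoskeleton, fell (-0.44, adjusted p = 4.56e-05), while NEMP1 (0.34, adjusted p = 0.00337) and TMEM201 (0.32, adjusted p = 0.00307), both of the inner nuclear membrane, rose. In HUCCT1 decitabine lowered 5 of 22, led by SYNE2 (-0.84, adjusted p = 1.12e-06), and raised 2, with a median of -0.15, where 13.9% of all genes were called lower and 19.6% higher. Without combination replicate 2 the EGI-1 counts were 2 lower and 1 higher, and without vehicle replicate 2 none was higher (0). The HUCCT1 counts were 2 lower and 0 higher without decitabine replicate 2 or vehicle replicate 1.

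Of 5 tested HMG genes outside the 10, HMGB3 (-0.52, adjusted p = 9.25e-05) and HMGN2 (-0.26, adjusted p = 0.00887) fell with the combination and HMGN4 rose (0.30, adjusted p = 0.0202), where 7.61% of all genes were called lower and 11.1% higher. The HMGN4 call was lost without combination replicate 2, when 2 fell and 0 rose, and without vehicle replicate 1, and the count lower was 1 without combination replicate 1 or either vehicle library. HMGB3 fell in HUCCT1 as well (-0.46, adjusted p = 0.00194), as the only one of 6, a share near the 13.9% of all genes called lower there. Of 16 tested heterochromatin genes the combination lowered 4 (against 7.61% of all genes), among them SETDB1 (-0.42, adjusted p = 0.00217) and EHMT1 (-0.32, adjusted p = 0.00505), which encode histone H3 lysine methyltransferases, and the histone variant gene MACROH2A2 (-0.38, adjusted p = 0.00154). It raised none, and the median was -0.08. Decitabine in HUCCT1 lowered 9 of 16 (against 13.9% of all genes), among them SUV39H1 (-0.97, adjusted p = 1.13e-06), ATRX (-0.76, adjusted p = 1.77e-05) and CBX5 (-0.72, adjusted p = 9.05e-06), which write, remodel and bind heterochromatin. Without combination replicate 2 or vehicle replicate 1 the EGI-1 count of heterochromatin genes was 2, and the HUCCT1 count was 4 without decitabine replicate 1 and 5 without vehicle replicate 2.

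Of 39 tested lysosomal genes other than GLB1, 11 rose and 1 fell with the combination in EGI-1, where 11.1% of all genes were called higher and 7.61% lower. The median was 0.12, against -0.03 over all genes. GM2A, the activator of ganglioside breakdown, rose most (0.80, adjusted p = 8.88e-08), followed by the protease gene CTSB (0.56, adjusted p = 1.29e-06) and the mannosidase gene MAN2B1 (0.35, adjusted p = 0.00172). In HUCCT1 8 of 40 rose, a share near the 19.6% of all genes called higher, and 10 fell, where 13.9% of all genes were called lower, with GM2A higher (0.85, adjusted p = 1.21e-06) and NAGLU (-1.22, adjusted p = 2.55e-08) and LIPA (-0.85, adjusted p = 2e-06) lower. Without combination replicate 2 the EGI-1 count was 8 higher and 0 lower, and without vehicle replicate 1 it was 7 higher and 0 lower. Without either decitabine library it was 13 higher and 3 lower. In HUCCT1 5 were lower without decitabine replicate 2.

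Cell cycle genes moved beside the lamins. With the combination in EGI-1, 19 of 43 S phase genes fell and 1 rose (median -0.22), and 14 of 51 G2/M genes fell and 2 rose (median -0.14), with TMPO, LBR and HMGB2 left out of the G2/M list. Of all genes, 7.61% were called lower and 11.1% higher in that comparison. MCM6 (-0.86, adjusted p = 2.58e-08) and MCM5 (-0.80, adjusted p = 3.89e-08), subunits of the replicative helicase, led the S phase genes. In HUCCT1 decitabine lowered 28 of 43 S phase genes (median -0.41) and 41 of 51 G2/M genes (median -0.54), and raised 0 and 1, where 13.9% of all genes were called lower and 19.6% higher. The G2/M genes lowered included PSRC1 (-0.99, adjusted p = 6.25e-07) and BUB1 (-0.99, adjusted p = 1.34e-07). Talazoparib alone in EGI-1 lowered 9 S phase genes and 1 G2/M gene, where 1.29% of all genes were called lower, so that the G2/M share was near that of all genes. Decitabine alone lowered 0 and 2, where 0.0268% of all genes were called lower. The talazoparib S phase count was 3 without either vehicle library, 4 without talazoparib replicate 1, 5 without talazoparib replicate 2 and 13 without either decitabine library. The talazoparib G2/M count was 0 without either vehicle library or talazoparib replicate 1 and 3 without either decitabine library, and both decitabine G2/M calls were lost without either vehicle library. The part of the cell cycle in the changes of LMNB1, TMPO, LBR and HMGB2 was not tested. Fewer cells of a phase and less RNA per cell cannot be told apart in these bulk samples. Without combination replicate 2, the counts lower were 16 for S phase and 10 for G2/M, and 0 and 1 were higher. They were 12 and 6 without vehicle replicate 1, G2/M was 6 without combination replicate 1 and 7 without vehicle replicate 2. G2/M was 21 without either decitabine library and 20 with upper-quartile factors, and the HUCCT1 S phase count was 17 without decitabine replicate 2.

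**Figure D4:**
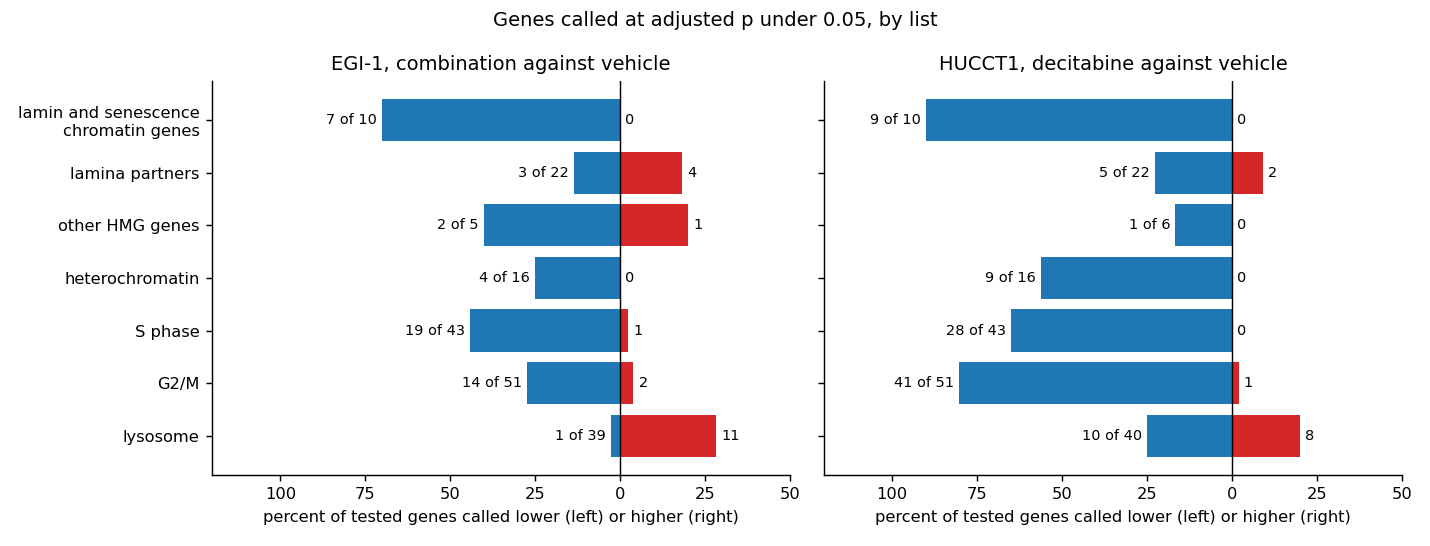
Percent of tested genes called lower (left of 0) or higher (right of 0) at an adjusted p under 0.05 in each list, for the combination in EGI-1 and decitabine in HUCCT1; numbers give genes called. The lamin and senescence chromatin genes were lower in 7 of 10 in EGI-1 and 9 of 10 in HUCCT1. Of the lysosomal genes, 11 were higher and 1 lower in EGI-1, and 8 were higher and 10 lower in HUCCT1. Of all genes tested, 7.61% were called lower and 11.1% higher in EGI-1, and 13.9% lower and 19.6% higher in HUCCT1.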

How the data were processed

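Total RNA of EGI-1 and HUCCT1 cells was sequenced, and the table the authors deposited holds raw read counts per gene, whole numbers without normalization, for 60651 versioned Ensembl identifiers in 12 libraries. Of these, 60437 were matched to a symbol. The study's methods name fastp, STAR and RSEM with GRCh38, whereas the submitters' processing notes name fastp, Trim Galore, HISAT2, featureCounts and GRCh38, and the use of strand in counting and of reads with several matches is not given in the sources used here. The libraries of the methods were made with a stranded total RNA kit (TruSeq, with ribosomal RNA removed). Only EGI-1 appears in the methods of RNA sequencing. The HUCCT1 conditions were taken from the labels, and the names of the talazoparib libraries carry another number than the 200 nM of labels and methods.

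The counts were analysed with edgeR 4.0.16 under R 4.3.3 (filterByExpr by arm, TMM scaling, robust quasi-likelihood test, two-sided), with Benjamini-Hochberg adjustment over all genes tested. Genes with an adjusted p under 0.05 were taken as called. The 8 EGI-1 libraries were fitted together (22406 genes), the 4 HUCCT1 libraries apart (22479) and all 12 together for comparisons between lines (25096). Log2 fold changes carry SE and 95% intervals from the weights of the fit. CPM per library was scaled by TMM over all 12 libraries, and CPM per kb used merged exon lengths of GENCODE 44. Log2 ratios and correlations used a prior count of 2. The code was tested on simulated data. Chi-square per gene between replicates lay between 2.73 and 12.6, above sampling noise, and no libraries were merged.

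The 10 genes and the gene lists were chosen with earlier results of these data known. All 10 genes were described in each comparison (several that passed no test by their range), of a list up to 3 called genes with the largest change among those whose mean log2 CPM reached 4, and the 5 genes most like LMNB1. Alternatives were DESeq2 1.42.0, RLE and upper-quartile factors, no count filter, each library left out in turn, other sets of libraries in the fit, a replicate block, added pseudogene counts, and log2 of CPM plus 1 for ratios. Protein sequences were not analysed here, and 1 of the cell type markers is not reported here.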

Additional observations from a re-analysis of the deposited data

Results flagged for a closer look

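The effect of decitabine differed between the lines by a test of the difference itself for 7 of the 10 genes, where 7.20% of 25096 genes were called lower. The log2 fold change was lower in HUCCT1 each time. For HMGA2 it was 0.04 in EGI-1 (95% interval -0.12 to 0.19, edgeR adjusted p = 0.933), where no change was called. The difference in log2 fold change was -1.19 for HMGA2, -1.01 for LMNB1, -0.81 for LMNA, -0.68 for HMGB2, -0.56 for TMPO, -0.45 for LMNB2 and -0.37 for GLB1 (edgeR interaction term, adjusted p from 2.21e-07 for HMGA2 to 0.0332 for GLB1). HUCCT1 received 1000 nM and EGI-1 500 nM, and unexplained codes in the library names differ between the lines. Line, dose and whatever these codes stand for cannot be told apart. The GLB1 call was lost in 5 of the 12 fits that left out 1 library (decitabine replicate 1 or either vehicle library of EGI-1, decitabine replicate 1 or vehicle replicate 2 of HUCCT1), with values from -0.46 to -0.30, and with upper-quartile scaling (-0.34, adjusted p = 0.0525). Groups of 2 libraries are too small for a test of outlying libraries.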

How the results depend on the processing

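Of 586 log2 fold changes of the 10 genes under alternatives other than leaving out a library, 565 kept both direction and call, 9 lost and 7 gained the call, and 5 changed sign, all 5 of values near 0 that passed no test: the LMNA departure from the summed single effects (0.002 with RLE and 0.011 with upper-quartile factors), the LBR departure (-0.004 with no count filter) and HMGB2 between vehicle-treated lines (0.012 with no count filter and 0.002 with DESeq2). The number of the 10 genes called moved by over 1.5 times for talazoparib, from 2 to 5 with only the 4 libraries of both arms and from 2 to 1 with either replicate block, and for the combination against talazoparib, from 2 to 1 with the block by number, where HMGB2 lost its call (adjusted p = 0.0729); the cause was not tested.

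Leaving out each library in turn, the number called ranged from 0 to 1 for decitabine in EGI-1, 1 to 5 for talazoparib, 5 to 7 for the combination against vehicle, 2 to 6 against decitabine, 1 to 3 against talazoparib, 0 to 0 for the departure, 7 to 9 for HUCCT1, 6 to 7 for the difference between lines and 5 to 6 between vehicles. The count of 1 for decitabine was LBR without decitabine replicate 1 (adjusted p = 0.0496), and the count of 5 for talazoparib came without either decitabine library, when LBR, HMGB2 and HMGA2 passed. The 2 against decitabine, LMNB1 and HMGB2, came without combination replicate 1. Values whose sign changed ranged, for decitabine in EGI-1, from -0.075 to 0.007 for TMPO, -0.04 to 0.11 for HMGB1, -0.015 to 0.10 for HMGA1 and -0.10 to 0.16 for HMGA2; GLB1 with talazoparib ranged from -0.008 to 0.10, HMGA1 with the combination from -0.058 to 0.014 and LMNB2 against decitabine from -0.05 to 0.018. Departures ranged from -0.005 to 0.063 for LMNB2, -0.053 to 0.061 for LMNA, -0.066 to 0.081 for LBR and -0.22 to 0.036 for HMGA2. HMGA1 ranged from -0.043 to 0.35 in HUCCT1 and from -0.073 to 0.34 for the difference between lines, and between vehicles TMPO from -0.15 to 0.007 and HMGB2 from -0.058 to 0.05.

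Replicate numbers were not taken to pair the libraries: between EGI-1 arms the deviations of same-numbered libraries correlated at -0.27 to 0.20, and HUCCT1 has 1 such pair of arms (0.29), too few to settle it there. With the number as a replicate block, 1 gene (LMNB1) was called for talazoparib, 7 for the combination against vehicle, 5 against decitabine, 1 against talazoparib, 0 for decitabine in EGI-1 and 10 in HUCCT1. The gene gained in HUCCT1 was HMGA1, higher with decitabine (0.17, adjusted p = 0.00792), and over all genes the block took the HUCCT1 calls from 7525 to 10136. With the series in the library names as block, the talazoparib count was also 1. All 16 log2 ratio differences moved by less than 1 SD with 1 added to CPM. For the combination against vehicle, fewer of all genes were called without either combination or vehicle library, and more without either decitabine library. With 2 libraries per condition, a single library decides many calls near the threshold, and values of HMGB1, HMGA2, TMPO and GLB1 carry the uncertainty of copies or overlapping genes.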
